A study of Sus scrofa with 9 samples.

Results

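Neural basic helix-loop-helix (bHLH) factors are transcription factors that drive progenitor cells toward neurons and, for some members, toward endocrine or sensory cells. The 9 genes described here are NHLH1, NHLH2, NEUROD1, NEUROD2, NEUROD4, NEUROD6, NEUROG1, NEUROG3 and ATOH1. They were chosen by name around NHLH1, which was itself chosen from the measured values because its 5-hydroxymethylcytosine (5hmC) was low in Obese-MSCs and lower again after vitamin-C. The values of NHLH1 are therefore given as a description with no test. All 9 genes were present among the 18933 genes measured in Obese-MSCs and Lean-MSCs and among the 18992 genes measured in treated and untreated Obese-MSCs, and 18752 genes were common to both tables.

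The mesenchymal stem/stromal cells (MSCs) were grown from subcutaneous abdominal fat of female domestic pigs, 3 months old when the diets began, and used at passages 3 to 4, and the deposited data held 9 libraries in 3 groups of 3. Lean-MSCs came from pigs on standard chow and Obese-MSCs from pigs on a high-fat/high-fructose diet for 16 weeks, both without treatment. Treated Obese-MSCs, from pigs on that same diet, received added vitamin-C at 50 µg/mL in culture for 48 h. The growth medium itself contained some vitamin-C, so untreated cultures were not free of it. For this reason the paper states that the vitamin-C effect might be underestimated. No vitamin-C-treated Lean cultures were among the samples. Although Obese-MSCs were grown both with and without added vitamin-C, the library numbers do not show which treated and untreated libraries share a pig. The p-values therefore measure the spread between these libraries only.

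5hmC is made from 5-methylcytosine by the TET enzymes, which use vitamin-C to keep their iron active, and it is abundant over the bodies of many active genes. In hMeDIP-seq, sheared DNA is pulled down with an antibody to 5hmC and sequenced, so a value per gene is an amount of 5hmC and not of RNA. The neural bHLH proteins bind E-box elements as dimers with widely expressed E proteins. ID proteins withhold those E proteins, and HES and HEY repressors, switched on by Notch signaling, silence many proneural genes. Their best known roles lie outside fat-derived stromal cells.

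The deposited values are edgeR-normalized counts of reads over all exons of a gene, 1 value per gene and library. Totals ranged from 494566 to 522269 normalized counts per library in the Obese versus Lean table and from 547242 to 593846 in the vitamin-C table, and the median gene held 11.9 to 12.9 and 13.1 to 14.2. A single read was worth about 0.739 to 1.22 normalized counts in the first table and 0.821 to 1.25 in the second, judged from the lowest step of the values, so a group mean of 3 or less rests on a few reads and no fold was computed when both means were that low. Both tables hold the same untreated Obese libraries, but each was normalized on its own, and comparisons stayed within a table. The surface-marker genes of MSCs carried 5hmC in Obese-MSCs and Lean-MSCs, with means of 30.9 and 26.9 for NT5E, 21.8 and 17.1 for THY1, and 57.3 and 40.4 for ENG. Of the markers that MSCs should lack, CD34 and PTPRC also carried 5hmC, with Obese means of 18.7 and 46.9 against Lean means of 17.8 and 59.3, whereas CD14 was listed at 0 in all 3 Lean libraries but had a mean of 2.02 in Obese-MSCs. None of these 6 genes met the criteria in either comparison, and exon 5hmC does not tell whether a marker is expressed.

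Genes with high or low 5hmC were called by the study's criteria, an unadjusted two-sided p-value of 0.05 or less together with a fold change of at least 1.4 (high) or at most 0.7 (low) between group means. By them, 391 genes (2.07%) were high and 461 (2.43%) were low in Obese-MSCs versus Lean-MSCs, and 2227 genes (11.8%) had groups that did not overlap. With vitamin-C, 211 genes (1.11%) were high and 153 (0.806%) were low, and 1122 (5.91%) did not overlap. With limma on log2(value + 1), no gene passed Benjamini-Hochberg adjustment at 0.05 in either comparison (0% of 15146 and of 15194), while 1031 genes (6.81%) and 148 genes (0.974%) had an unadjusted p-value under 0.05. In bulk cultures, fewer cells with 5hmC at a gene and less 5hmC per cell cannot be told apart.

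In Obese-MSCs versus Lean-MSCs, 3 of the 9 neural bHLH genes met the criteria for low 5hmC and none for high. They were NHLH1, NHLH2 and NEUROG3, and these were also the 3 whose groups did not overlap, against 11.8% of all genes. Leaving out NHLH1, which was chosen for this contrast, 2 of 8 members were called, against 2.43% low among all genes, and the NEUROG3 call rests on a few reads. With vitamin-C, NHLH1 was the only member called. Of the other 8, 0 met the criteria, which does not stand out against 1.92% of all genes. NHLH1 was the only member low in both comparisons, as were only 2 genes of all those measured, NHLH1 included.

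NHLH1, also known as HEN1, is switched on as newborn neurons leave the cell cycle. It lies on chromosome 4 at 90107243 to 90116068 of Sscrofa11.1, a span of 8826 bp. In the Lean libraries it held 67.0, 97.3 and 88.3 normalized counts (mean 84.2 ± 15.6 SD, n = 3) and in the Obese libraries 42.4, 59.8 and 51.8 (51.3 ± 8.72 SD, n = 3). The groups did not overlap, although the highest Obese and the lowest Lean value were close. The ratio of means was 0.610, a log2 ratio of -0.71, which ranged from -0.85 to -0.59 as each library was left out. In the vitamin-C table the untreated Obese libraries held 47.3, 67.5 and 57.0 normalized counts of NHLH1 (57.3 ± 10.1 SD, n = 3) and the treated libraries 42.2, 40.8 and 31.2 (38.1 ± 5.99 SD, n = 3). All treated values were below all untreated values, and the ratio of means was 0.665, or -0.59 on the log2 scale, with a range of -0.71 to -0.45 as each library was left out.

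The order of the NHLH1 levels was thus Lean, untreated Obese and treated Obese, from high to low, and neighboring groups did not overlap. The mean of the untreated Obese libraries was 51.3 in one table and 57.3 in the other, and their NHLH1 values were 1.10 to 1.13 times higher in the second table, as were those of the median gene. Both comparisons share these untreated libraries. With 2 libraries in 1 of the groups, NHLH1 was still called in only 1 of 6 arrangements in each comparison. These were the ones without Lean library 7 and without untreated Obese library 1. In Obese-MSCs versus Lean-MSCs its ratio stayed under 0.7 in every arrangement (log2 ratios of -0.85 to -0.59). There the calls were lost by the p-value, with 1 library fewer. As NHLH1 was chosen for being low, these calls are no test of it. The vitamin-C call was also lost with unequal variances. Near the ratio threshold of 0.7, NHLH1 lay inside at 0.665 with vitamin-C. NEUROD6 lay just outside at 0.719 in Obese-MSCs versus Lean-MSCs, and NHLH2 with vitamin-C, at 0.670, met the ratio but not the p-value. NHLH1 had the most normalized counts of the members, above 90.6% of all genes by mean in the first table and 82.7% in the second.

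**Figure D1:**
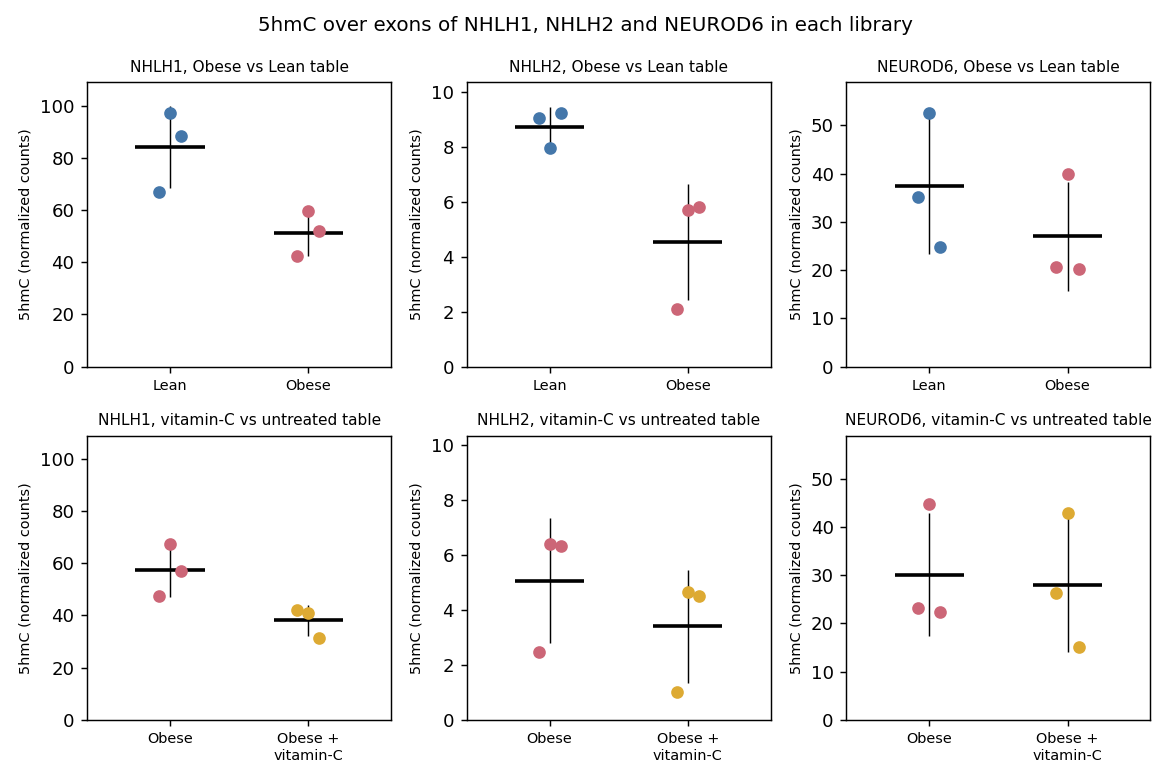
5hmC of NHLH1, NHLH2 and NEUROD6 in normalized counts over exons (vertical axes from 0), with 1 point per library, horizontal bars for group means and vertical lines for ± 1 SD (n = 3). The upper row is the Obese versus Lean table and the lower row the vitamin-C table, where the groups of NHLH1 are separate in both rows, those of NHLH2 only in the upper row, and those of NEUROD6 in neither.

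NHLH2, the closest relative of NHLH1, acts in hypothalamic neurons, and mice without it become obese as adults. It lies on chromosome 4 at 104852287 to 104858042. Exon lengths were not used here, so counts of different genes are not compared as levels. NHLH2 held 9.04, 7.94 and 9.24 normalized counts in Lean-MSCs (8.74 ± 0.70 SD, n = 3) and 2.11, 5.71 and 5.80 in Obese-MSCs (4.54 ± 2.10 SD, n = 3). The Lean values were tight, and all 3 Obese values lay below them, with library 1 far below the other two. The ratio of means was 0.519, or -0.94 on the log2 scale, and NHLH2 met the criteria for low 5hmC (unadjusted p = 0.0305 by the study's test, exact permutation p = 0.1, the smallest that 3 libraries against 3 can give). In the limma fit over all genes the log2 difference was -0.90 (SE 0.44) with an adjusted p-value of 0.742. NHLH2 stayed below Lean in every arrangement with 1 library left out (-1.16 to -0.60), but the call was lost without Lean library 7, 8 or 9, at log2 ratios of -0.92, -1.01 and -0.90. It was also lost when the study's test was run on log2(value + 1) or with unequal variances.

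With vitamin-C, NHLH2 held 1.01, 4.66 and 4.52 normalized counts against 2.46, 6.40 and 6.34 in untreated Obese-MSCs. These groups overlapped, with 1 low library on each side. The means were 3.40 ± 2.07 and 5.07 ± 2.26 (SD, n = 3 each), the log2 ratio was -0.58, and the exact permutation p-value was 0.5. In the limma fit the log2 difference was -0.53 (SE 0.59, adjusted p = 1.000). These tests treat the libraries as unpaired, so their error includes any spread between pigs.

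The NEUROD genes act after the NEUROG genes, when committed precursors become neurons. NEUROD6, a marker of pyramidal neurons of the cortex, lies on chromosome 18 at 41757356 to 41763837 and had 35.1, 52.6 and 24.7 normalized counts in Lean-MSCs and 20.6, 40.0 and 20.3 in Obese-MSCs. The groups overlapped widely, and the Lean libraries alone ranged over more than the difference of the means. Those means were 37.5 ± 14.1 and 27.0 ± 11.3 (SD, n = 3 each), a log2 ratio of -0.48 with an exact permutation p-value of 0.5 and a limma adjusted p-value of 0.835. With vitamin-C, NEUROD6 held 26.2, 42.8 and 15.0 normalized counts against 23.1, 44.8 and 22.4 without, a log2 ratio of -0.11 (exact permutation p = 0.9). The whole span of NEUROD6 (6482 bp) lies inside that of CCDC129, and reads over exons that the genes may share cannot be assigned to one of them. CCDC129 held 58.5, 41.7 and 41.1 normalized counts in Lean-MSCs and 29.3, 37.0 and 31.8 in Obese-MSCs, groups that did not overlap, with a log2 ratio of -0.53 (limma adjusted p = 0.762). It did not meet the criteria, and with vitamin-C its means were 37.0 and 36.5.

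NEUROD4, which takes part in forming retinal interneurons, lies on chromosome 5 at 20046864 to 20057380. Its values were 7.93, 3.96 and 12.3 normalized counts in Lean-MSCs and 5.33, 4.70 and 9.22 in Obese-MSCs, and the Lean range enclosed the Obese range. The means were 8.06 ± 4.16 and 6.42 ± 2.44 (SD, n = 3 each), with a log2 ratio of -0.33 (exact permutation p = 0.7) that turned to 0.11 without Lean library 9. With vitamin-C, NEUROD4 held 5.03, 6.47 and 8.11 normalized counts against 5.99, 5.41 and 10.1, a log2 ratio of -0.13 (exact permutation p = 0.8). In neither comparison did NEUROD4 differ by more than the spread between libraries.

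NEUROD1, required for insulin-producing beta cells as well as for neurons, lies on chromosome 15 at 87175629 to 87179953 and was near the limit of a few reads. It held 3.35, 0.988 and 3.08 normalized counts in Lean-MSCs and 1.53, 0 and 3.39 in Obese-MSCs. With vitamin-C, NEUROD1 values were 4.02, 1.79 and 5.44 against 1.71, 0.0277 and 3.65 in the untreated libraries. The treated mean of 3.75 ± 1.84 was above the untreated mean of 1.80 ± 1.81 (SD, n = 3 each), but the groups overlapped (log2 ratio 1.06, exact permutation p = 0.2). NEUROD2, a regulator of cortical projection neurons on chromosome 12 at 22709473 to 22713785, behaved likewise. Its Lean values were 2.28, 2.98 and 2.06 normalized counts and its Obese values 3.30, 0 and 1.22, and with vitamin-C it held 2.02, 4.67 and 2.66 against 3.57, 0.0274 and 1.36. The treated and untreated means of NEUROD2 were 3.12 and 1.65, with a log2 ratio of 0.91 and overlapping groups (exact permutation p = 0.4).

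The NEUROG genes commit progenitors to their fate. NEUROG3, which starts the endocrine program of the pancreas, lies on chromosome 14 at 72604203 to 72606362. It held 2.28, 2.98 and 2.06 normalized counts in Lean-MSCs (2.44 ± 0.480 SD, n = 3) and 0.775, 0.952 and 0.024 in Obese-MSCs (0.584 ± 0.493 SD, n = 3). All Obese values were below all Lean values, at about 1 read or none against a few reads, and the gene met the criteria for low 5hmC (unadjusted p = 0.00946 by the study's test, exact permutation p = 0.1), also with any 1 library left out. NEUROG3 was too low for the limma fit. Its Lean values were the same as those of NEUROD2 in all 3 libraries, at this level of a few reads. With vitamin-C it held 1.01, 2.79 and 2.70 normalized counts against 0.863, 1.07 and 0.041, groups that overlapped (exact permutation p = 0.2), and it met the criteria for high 5hmC only when treated library 4 was left out.

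The span of NEUROG3 (2160 bp) lies wholly inside that of C14H10orf35, and reads over exons that the genes may share cannot be told apart. C14H10orf35, on chromosome 14 at 72558826 to 72646748, held 7.98, 7.94 and 11.3 normalized counts in Lean-MSCs and 3.92, 2.83 and 3.54 in Obese-MSCs. It was low in Obese-MSCs, with a log2 ratio of -1.4 (unadjusted p = 0.00808 by the study's test, exact permutation p = 0.1, limma adjusted p = 0.674). With vitamin-C it held 7.04, 5.53 and 6.26 normalized counts against 4.34, 3.24 and 3.90 and was high, with a log2 ratio of 0.71 (unadjusted p = 0.0106, exact permutation p = 0.1, limma adjusted p = 1.000). In both comparisons its groups did not overlap and the call held with any 1 library left out. The untreated Obese libraries are the same in both, so a low draw of these enters both ratios. The annotation places NEUROG3 within this gene, and which of the genes the reads came from was not tested.

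NEUROG1, needed for sensory neurons of the cranial ganglia, lies on chromosome 2 at 137763091 to 137766787. It held 1.20, 2.98 and 3.08 normalized counts in Lean-MSCs and 3.21, 1.89 and 1.25 in Obese-MSCs. Its vitamin-C values were 3.02, 4.67 and 1.72 against 3.51, 2.16 and 1.42, with a log2 ratio of 0.41 (exact permutation p = 0.6). ATOH1, the factor of cerebellar granule cells and of hair cells of the inner ear, lies on chromosome 8 at 125768232 to 125770619 and was the only member with a higher mean in Obese-MSCs, at 2.26 against 2.07 normalized counts (exact permutation p = 0.8). Its Obese values were 1.46, 1.88 and 3.44 and its Lean values 1.19, 3.98 and 1.04. With vitamin-C, ATOH1 held 2.01, 0.919 and 0 normalized counts against 1.67, 2.16 and 3.75 (exact permutation p = 0.2). All groups of NEUROG1 and ATOH1 overlapped, at levels where a single read changes the order.

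**Figure D2:**
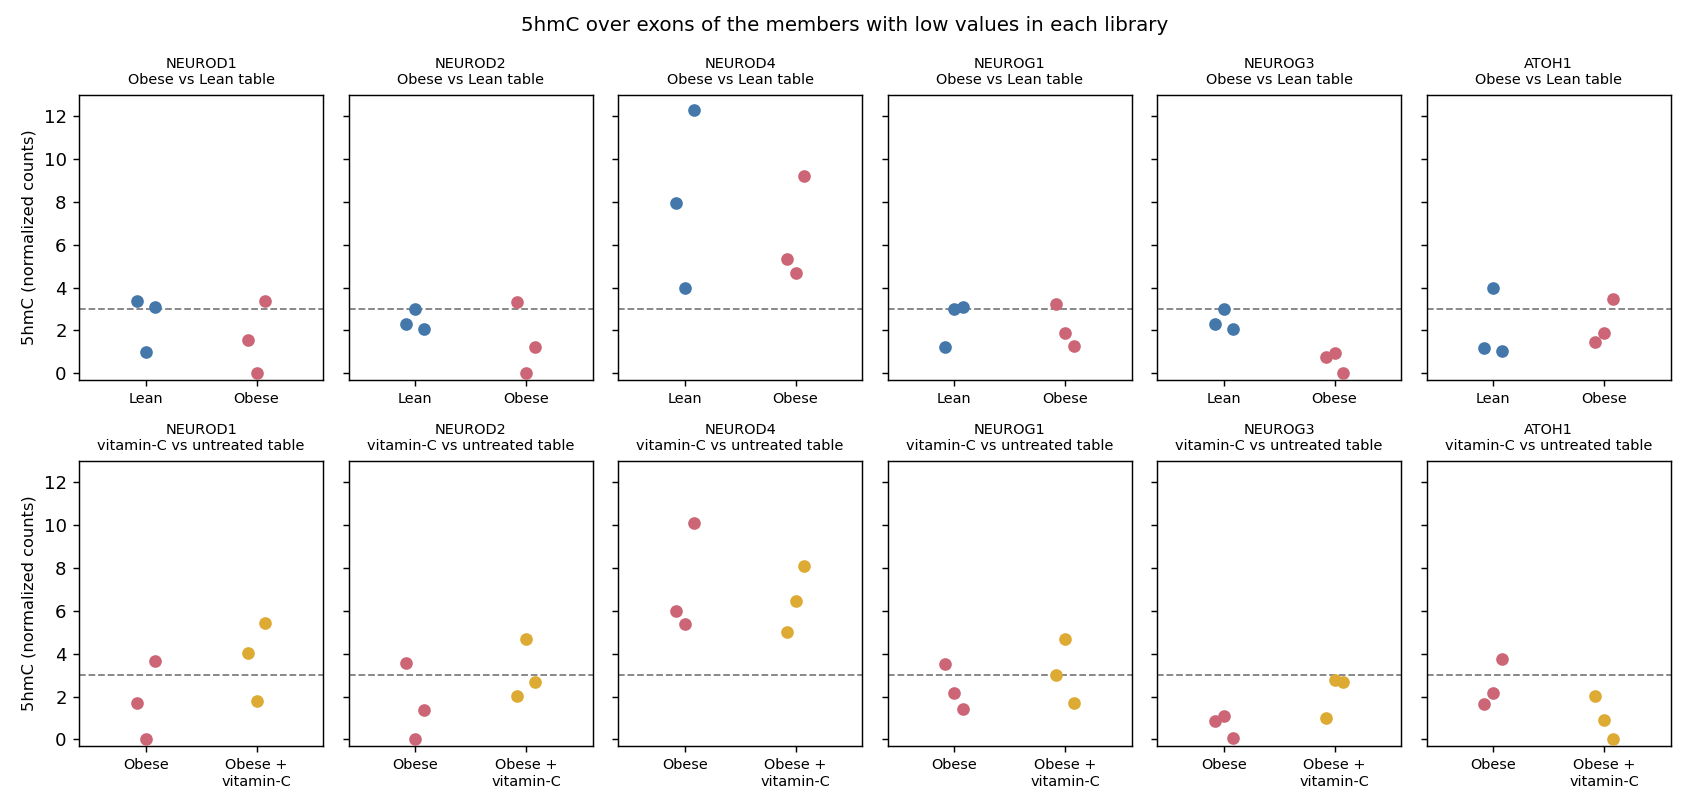
5hmC of NEUROD1, NEUROD2, NEUROD4, NEUROG1, NEUROG3 and ATOH1 in normalized counts over exons (shared vertical axis), with 1 point per library, for the Obese versus Lean table (upper row) and the vitamin-C table (lower row). The dashed line marks 3 normalized counts, and most points of 5 of these genes lie near or below it, whereas NEUROD4 lies above it throughout. Of the panels, only NEUROG3 in the upper row shows groups that do not overlap.

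Across the members, the mean was lower in Obese-MSCs than in Lean-MSCs for 7 of the 8 genes other than NHLH1 (87.5%), against 48.8% of all genes. For 5 members both means were 3 or less. The median difference of mean log2(value + 1) was -0.51 over these 8 genes and 0.01 over all genes. Summed over the 8 genes, Lean-MSCs had 66.1 ± 10.9 normalized counts and Obese-MSCs 46.0 ± 8.49 (SD, n = 3 each), which gives a ratio of 0.696 with groups that did not overlap, and NEUROD6 holds most of this sum. With vitamin-C, 4 of the 8 means were lower and 4 were higher, the median difference was 0.10, and the sums were 51.1 ± 15.5 and 51.4 ± 9.78. NHLH1 was lower with vitamin-C, at a log2 ratio of -0.59, and NHLH2 had a ratio of -0.58 with overlapping groups. That of NHLH2 comes from low means, 3.40 with vitamin-C and 5.07 without, and ranged from -0.91 to -0.14 as each library was left out. NEUROD4, NEUROD6 and ATOH1 also had lower means. The 4 members with higher means, NEUROD1, NEUROD2, NEUROG1 and NEUROG3, rest on a few reads, as does ATOH1. The difference between NHLH1 and the others was not tested.

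The genes around NHLH1 were compared to see how far its low 5hmC extended. Of the 5 nearest measured genes on each side, 1 of 10 met the criteria in Obese-MSCs versus Lean-MSCs, against 2.43% low among all genes. This was NCSTN, 5.14 kb from NHLH1, which encodes nicastrin, a subunit of the γ-secretase that cleaves Notch receptors. NCSTN held 33.0, 41.7 and 49.3 normalized counts in Lean-MSCs and 26.4, 22.7 and 30.4 in Obese-MSCs, groups that did not overlap. Its log2 ratio was -0.64, with a limma adjusted p-value of 0.704, and it ranged from -0.78 to -0.49 as each library was left out, with the call lost in 5 of 6 arrangements. On the other side, at 26.5 kb, VANGL2, a planar cell polarity gene, had a log2 ratio of -0.23 with overlapping groups. Farther out, the leukocyte receptor genes SLAMF6 and CD84 had log2 ratios of -0.62 and -0.44, CD84 with groups that did not overlap and SLAMF6 with overlapping groups, and neither met the criteria.

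In all, 8 of these 10 genes had a ratio below 1 in Obese-MSCs versus Lean-MSCs, against 48.8% of all genes. Their median log2 ratio was -0.26, against 0.01 over all genes, and 2 of 10 had groups that did not overlap, against 11.8%. The neighbors ranged from -0.64 for NCSTN to 0.48 for CD48, and NHLH1 at -0.71 was below each of them. As NHLH1 was chosen for being low in both comparisons, its place below its neighbors follows largely from that choice and is no test. With vitamin-C, 0 of 10 met the criteria, against 1.92% of all genes, and 0 had groups that did not overlap, against 5.91%. The median log2 ratio of these neighbors was 0.06 and the range -0.21 to 0.21. NCSTN lay at the upper end, at 0.21, and VANGL2 at -0.12, whereas NHLH1 was at -0.59. The genes beside NHLH1 were thus not lower as a set with vitamin-C, but whether NHLH1 differs from them was not tested. None of them reached an adjusted p-value below 0.704 or, with vitamin-C, below 1.000 in limma.

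**Figure D3:**
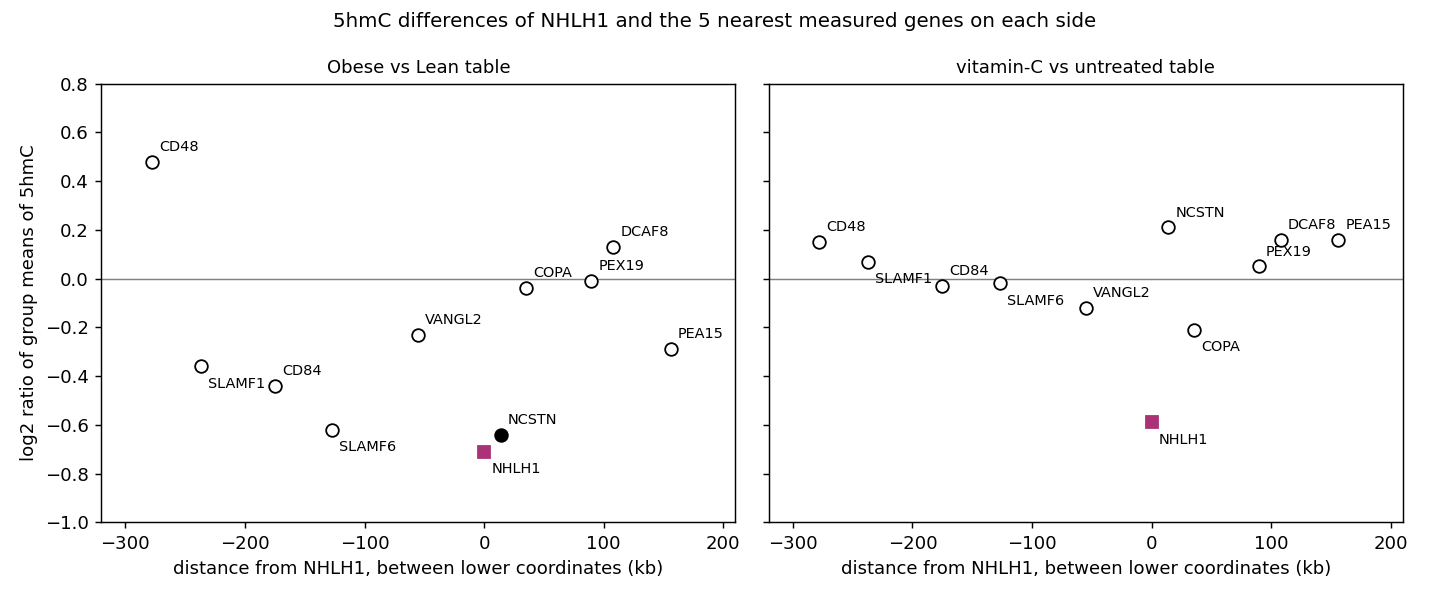
Log2 ratio of group means of 5hmC (vertical axis) for NHLH1 (square) and the 5 nearest measured genes on each side (circles) against the distance from NHLH1 in kb (horizontal axis), for Obese-MSCs versus Lean-MSCs (left) and vitamin-C versus untreated (right). Filled symbols meet the criteria. NHLH1 and NCSTN lie low on the left, at -0.71 and -0.64, and NHLH1 alone lies low on the right, at -0.59. NHLH1 was chosen for being low in both.

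For NHLH2, the nearest measured genes were SLC22A15 and CASQ2, with log2 ratios of 0.33 and 0.16 in Obese-MSCs versus Lean-MSCs and of 0.12 and -0.02 with vitamin-C. The low 5hmC of NHLH2 was thus flanked by higher means on both sides. Neither of these genes met the criteria.

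The partners, inhibitors and targets of the neural bHLH factors were read from gene lists. The E proteins, the obligate partners, had 0 of 3 members called in either comparison, against 4.50% and 1.92% of all genes. TCF4, at 202 ± 41.7 normalized counts in Lean-MSCs and 185 ± 57.4 in Obese-MSCs, had a log2 ratio of -0.13, and TCF3 and TCF12 had 0.14 and 0.07. With vitamin-C the E proteins lay between -0.09 and 0.01. Of the ID, HES and HEY inhibitors, 1 of 13 measured genes was low and none high in Obese-MSCs (7.69% called, against 4.50% of all genes). The low gene was HEYL, a Notch effector, with 11.2, 4.68 and 7.12 normalized counts against 18.0, 12.9 and 16.4, groups that did not overlap, and a log2 ratio of -1.04 (limma adjusted p = 0.674). It was still called in 2 of 6 arrangements with 1 library left out. Of the 8 inhibitors with a group mean above 3, the ratio was above 1 for 6 and below 1 for 2, HEYL and HEY1, with a median log2 ratio of 0.83. HES2 (3.42 against 1.36) and ID4 passed this limit only through their Obese means, so the limit itself raises the count and the median. The 7 other than HEYL did not meet the criteria. Among them, ID4 had means of 6.69 ± 2.08 against 2.83 ± 1.39, HEY2 of 32.4 ± 9.12 against 18.7 ± 3.56, and HEY1 of 3.83 ± 1.95 against 6.37 ± 3.19 (SD, n = 3 each). With vitamin-C, 0 of 14 inhibitors were called, against 1.92% of all genes, and the median was -0.29.

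Notch ligands, receptors and modulators, which act upstream of HES and HEY, had 0 of 16 genes called in both comparisons, against 4.50% and 1.92% of all genes. Their median log2 ratios were -0.01 and 0.15. Among 19 related neural and class II bHLH genes, 1 was high in Obese-MSCs (5.26% called, against 4.50% of all genes). This was FERD3L, a bHLH gene of the neural floor plate, with 7.65, 7.56 and 11.6 normalized counts against 3.39, 2.98 and 3.08 in Lean-MSCs. Every Obese library was above every Lean library, the log2 ratio was 1.5 (limma adjusted p = 0.668), and the call held with any 1 library left out. With vitamin-C, FERD3L held 4.03, 5.54 and 8.14 normalized counts against 8.57, 8.61 and 12.7. These groups did not overlap, but FERD3L did not meet the criteria (log2 ratio -0.76). The untreated Obese libraries are shared here too, so a high draw of these enters both ratios. NEUROG2, the remaining neurogenin, had means of 9.67 against 10.1 in Obese-MSCs versus Lean-MSCs and of 12.5 against 10.8 with vitamin-C, and was not called. The median log2 ratios of this list were -0.10 and 0.22.

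Of 22 measured genes that act downstream in neuronal or islet differentiation, 2 were low in Obese-MSCs and none high (9.09% called, against 4.50% of all genes), with a list median of -0.21. PAX4, a factor of beta-cell development that follows NEUROG3, held 10.2, 12.9 and 11.3 normalized counts in Lean-MSCs and 3.02, 6.71 and 1.33 in Obese-MSCs. The groups were well separated, the log2 ratio was -1.64 (unadjusted p = 0.0116 by the study's test, exact permutation p = 0.1, limma adjusted p = 0.668), and the call held with any 1 library left out. NKX2-2, a homeobox gene of islet cells and of the ventral neural tube, was low in Obese-MSCs at 6.21 ± 1.4 against 9.42 ± 0.731 and high with vitamin-C at 10.0 ± 0.764 against 6.93 ± 1.59 (SD, n = 3 each). Its log2 ratios were -0.60 and 0.53 (limma adjusted p = 0.835 and 1.000), and each call was kept in 1 of 6 arrangements with 1 library left out. PAX4 did not follow, at 4.45 ± 3.23 with vitamin-C and 4.12 ± 3.00 without. NKX2-2 was the only gene of this list called with vitamin-C (4.55%, against 1.92% of all genes), where the list median was 0.13. As both comparisons share the untreated libraries, a low or high draw of these enters both ratios.

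**Figure D4:**
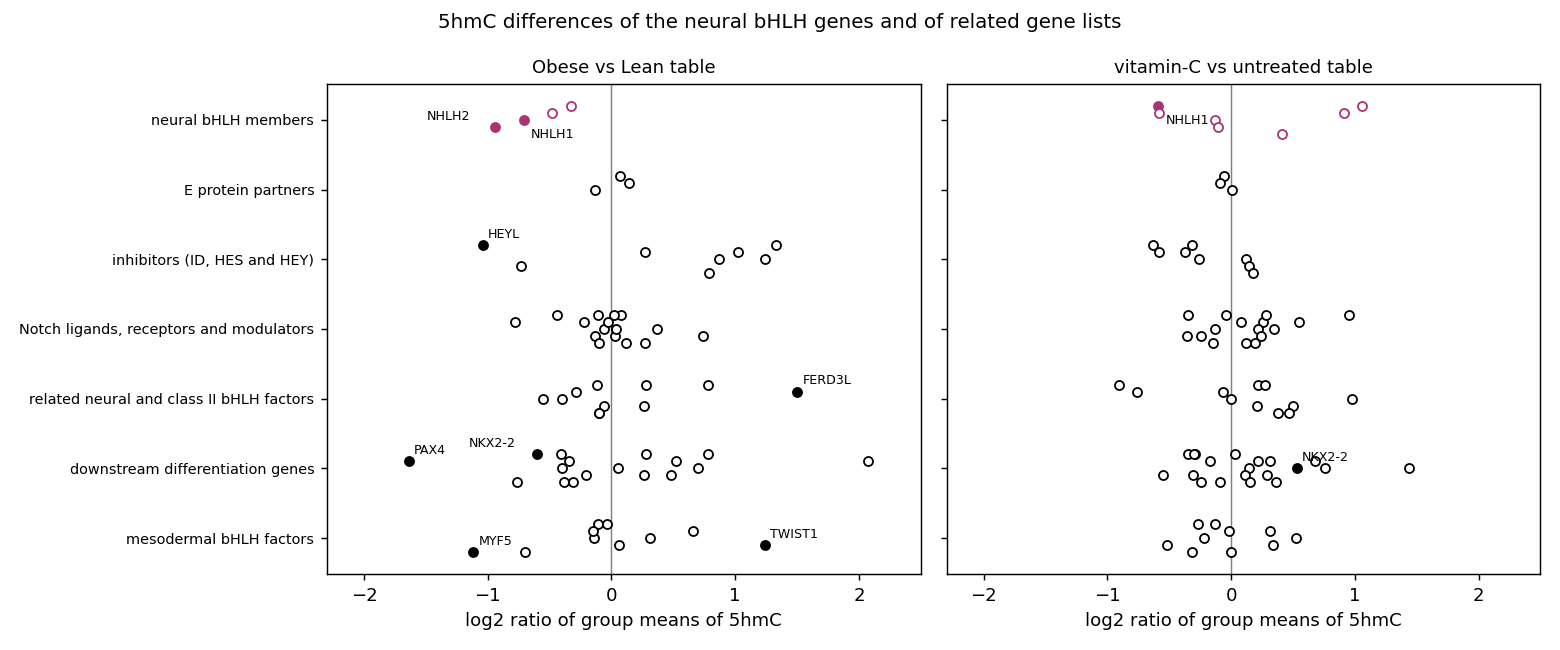
Log2 ratio of group means of 5hmC (horizontal axis) for genes of each list (rows) with a group mean above 3 normalized counts, in Obese-MSCs versus Lean-MSCs (left) and with vitamin-C (right). Each circle is a gene, spread vertically within its row for legibility only. Filled circles meet the criteria and are named. In the top row, the left panel shows only 4 of the 9 neural bHLH members, NHLH1 among them, and these lie left of 0. ATOH1, the member with a higher mean in Obese-MSCs, falls under the limit and is not shown. On the right, the members right of 0 are NEUROD1, NEUROD2 and NEUROG1. Their means were above 3 only with vitamin-C, so their side follows from the limit.

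The genes whose 5hmC followed NHLH1 most closely over the libraries lay on other chromosomes. Among 9122 genes whose mean was in the upper 50% in each table, the highest values of the smaller of the 2 Pearson correlations, over 6 libraries in each table, were 0.931 for GANC, 0.929 for VWA3B, 0.892 for CCL22, 0.870 for FRMPD1 and 0.865 for PDCD7. Their log2 ratios were -0.53, -0.49, -0.45, -0.40 and -0.52 in Obese-MSCs versus Lean-MSCs and -0.13, -0.62, -0.22, -0.47 and -0.82 with vitamin-C. These are descriptions of the top of a long ranking in which the untreated libraries enter both times. Group differences, for which NHLH1 was chosen, were not removed, so genes that differ between the same groups rank high. Among the members, none followed NHLH1 closely in both tables, and NEUROD6 came nearest with 0.65 and 0.57, whereas NHLH2 had 0.83 and 0.36.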

How the data were processed

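5hmC in 9 libraries of swine MSCs was measured by hMeDIP-seq. The authors aligned paired reads with Bowtie2 2.3.3.1 to susScr 11.1, removed duplicates with Picard 1.67, summed exonic reads per gene with HTSeq 0.9.1 and processed the counts with edgeR 3.28.1. The deposited signal is in fractional normalized counts, in 2 tables normalized separately. Whole reads could not be recovered for nearly all genes, so no count test was run, and without known depth no counting intervals were computed. All value columns were used (0 unmapped). Numerical residue around 0, 645 values in the vitamin-C data, was set to 0. Symbols were matched to RefSeq Sscrofa11.1 positions for 18933 and 18967 genes.

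Libraries were grouped by the submitters' labels. The study's criteria (two-sided test with equal variances) were applied to all genes. In R 4.3.3, limma 3.58.1 modeled log2(value + 1), with a trend, over the upper 80% of genes by mean, with Benjamini-Hochberg adjustment. The pseudocount of 1 understates changes of low genes. Log2 ratios in the text are of group means without it. Exact permutation tests were two-sided over 20 arrangements. Scripts ran in Python 3.11.15 (scipy 1.17.1, pandas 2.3.3, numpy 2.4.6 and, for plots, matplotlib 3.10.9), and were tested on simulated data.

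The members and lists were chosen with earlier results of these data known. Named genes were the 9 members, the 5 measured genes on each side of NHLH1 and the nearest beside the other members, at most 4 called genes per list and comparison, and the 5 genes most like NHLH1. SLC22A15, CASQ2, CCDC129 and C14H10orf35 are such nearest genes. NEUROG2, ID4, HEY1, HEY2, the E proteins and the markers were named from their lists, ID4, HEY1 and HEY2 after their values were seen. Of the listed genes, ASCL2, ASCL5, JAG2, NOTCH1, TUBB3, ELAVL4, BARHL1, INS and NDN were not analysed in 1 or both comparisons, and HES5 not in Obese-MSCs versus Lean-MSCs. Alternatives were other variance models, thresholds, scalings, filters and pseudocounts, and each library left out in turn. Human libraries, mRNA sequencing and peaks were not used here.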

Additional observations from a re-analysis of the deposited data

How the results depend on the processing

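No paired analysis was possible because the groups share no replicate numbers and no key matches treated with untreated libraries. With a p threshold of 0.01, 1 member (NEUROG3) instead of 3 and 216 instead of 852 genes were called in Obese-MSCs versus Lean-MSCs, and 0 members instead of 1 and 66 instead of 364 genes with vitamin-C, as fewer genes pass a stricter threshold. With unequal variances or on log2(value + 1), 2 members (NHLH1 and NEUROG3) were called in Obese-MSCs versus Lean-MSCs. With unequal variances 0 members were called with vitamin-C, and among genes in the upper 80% by mean 231 genes were called. As each library was left out in turn, members called ranged from 1 to 2 in Obese-MSCs versus Lean-MSCs (1, NEUROG3, without Lean library 8 or 9) and from 0 to 1 with vitamin-C (0 without treated library 5 or 6 or untreated library 2 or 3, and NEUROG3 in place of NHLH1 without treated library 4), and all genes called ranged from 763 to 955 and from 387 to 534. With limma, 0 to 1 genes passed in Obese-MSCs versus Lean-MSCs, 1 without untreated library 1 and 1 without untreated library 2. Neither was a member other than NHLH1, which was left out of that check. Called neighbors of NHLH1 in Obese-MSCs versus Lean-MSCs ranged from 0 to 1 without each library, 1 only without Lean library 7. They were 2 with 10 genes on each side, and 0 in every setting with vitamin-C. Log2 ratios changed sign for NEUROD4 (-0.68 to 0.11 in Obese-MSCs versus Lean-MSCs, -0.31 to 0.20 with vitamin-C, being 0.03 without treated library 4) and for NEUROD6 with vitamin-C (-0.55 to 0.30, being 0.19 without treated library 6). The cause was not tested. The lowest limma adjusted p-value over members other than NHLH1 was 0.642 to 0.967 over 13 alternatives in Obese-MSCs versus Lean-MSCs and 1.00 in each with vitamin-C. Depth limits NEUROD1, NEUROD2, NEUROG1, NEUROG3 and ATOH1, whose values rest on a few reads.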

Other observations

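Mesodermal bHLH genes, which act in muscle and mesenchyme, had 1 high and 1 low gene of 15 measured in Obese-MSCs versus Lean-MSCs (13.3% called, against 4.50% of all genes). TWIST1, a regulator of mesenchyme, was high, with 6.34, 4.73 and 3.64 normalized counts against 1.19, 1.98 and 3.07 in Lean-MSCs, groups that did not overlap (log2 ratio 1.24, exact permutation p = 0.1). MYF5, a determination factor of skeletal muscle, was low, with 2.22, 2.83 and 4.61 against 8.95, 6.95 and 5.16, groups that did not overlap either (log2 ratio -1.12, exact permutation p = 0.1, limma adjusted p = 0.757). Each call was kept in 1 of 6 arrangements with 1 library left out, and TWIST1 was too low for the limma fit. With vitamin-C, 0 of these 15 genes were called, against 1.92% of all genes. The list medians were -0.07 in Obese-MSCs versus Lean-MSCs and -0.08 with vitamin-C.

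CDK12, next to NEUROD2, had 91.3, 72.0 and 70.8 normalized counts in Obese-MSCs and 95.1, 101 and 112 in Lean-MSCs, a log2 ratio of -0.40 with groups that did not overlap. It did not meet the criteria, and with vitamin-C its log2 ratio was 0.00 with overlapping groups.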
